A study of Mus musculus with 12 samples.

Results

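The genes described here are 43 genes of DNA replication and mitosis, a list of symbols of which all 43 were among the 50600 gene IDs counted in each library. They comprise 19 genes of mitosis, 20 genes of DNA replication and 4 genes of the passage from G1 to S phase. Of the 43, 42 passed the filter on low counts and were tested among 16052 genes. The remaining gene, Cdt1, which loads the replicative helicase at origins, was listed at 0 reads in all 12 libraries. Cdt1 lies wholly inside the body of the longer gene Gm20388 on the same strand, and 99% of 411 protein-coding genes inside a gene of the same strand had 0 reads in every library, against 13.2% of 20571 inside no other gene. No level of Cdt1 is therefore given.

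RNA was taken from 12 mice, 3 in each of 4 groups, and poly(A) RNA was sequenced in a strand-specific way. Ctrl mice carried loxP-flanked Dnmt1 alleles (DNMT1 fl/fl) without Cre, and thymocytes of mice aged 20 to 25 weeks were used. KO mice carried the same alleles with CD4-CRE, which deletes Dnmt1, the maintenance DNA methyltransferase, in T cells from the stage at which Cd4 is expressed, and their thymocytes were taken at 20 to 21 weeks. ALK mice carried the human NPM-ALK fusion under a T-cell Cd4 enhancer and promoter, and T cell lymphoma cells were taken at 24, 22 and 31 weeks. ALKKO mice carried NPM-ALK together with DNMT1 fl/fl and CD4-CRE, and their thymocytes, not tumors, were taken at 19 to 25 weeks. All mice were of a mixed genetic background and all were male but the second KO mouse. The labels give the ALK mice no Dnmt1 alleles. Thus every comparison with ALK sets tumor cells against thymocytes as well as one genotype against another.

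Replication begins when the origin recognition complex, with Cdc6 and Cdt1, loads the Mcm2 to Mcm7 helicase in G1. Mcm10, Cdc45 and the GINS complex then activate the helicase, and DNA polymerases copy both strands while the clamp Pcna holds them on the template. Mitotic genes such as Cdk1, Plk1 and the Aurora kinases are transcribed later, mostly in G2. In the thymus, T-cell precursors divide rapidly before and after they rearrange their receptor genes, whereas most of the small thymocytes that carry both Cd4 and Cd8 do not divide.

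The promoters of these genes carry different letters in front of the 2 main roles. RefSeq promoter windows of 300 bases (250 before and 50 after the start, GRCm38.p6) were found for 35 of the 43 genes, 1 window a gene except Mcm7 with 2, which gave 16 windows of mitosis, 17 of replication and 3 of G1/S. The windows were searched for 3 kinds of motif on both strands, namely letters bound by E2F factors (TTTCCCGC, TTTGGCGC, TTTCGCGC or TTTGCCGC), the cell cycle genes homology region, or CHR (TTTGAA or TTCGAA), which the MuvB complex binds, and CCAAT, which NF-Y binds. None of their letters are shared between a match of one kind and a match of another in the windows printed here. The E2F type was found in 8 of the 17 replication windows (47.1%) and in 1 of the 16 mitosis windows (6.25%), against 2.26% of all 32851 promoters. CHR letters were found in 13 of the 16 mitosis windows (81.2%), in 4 of the 17 replication windows (23.5%) and in 19.2% of all promoters. CCAAT was found in 15 of 16 mitosis windows (93.8%), in 13 of 17 replication windows (76.5%) and in 37.4% of all promoters. None of the 3 G1/S windows held the E2F type, and 1 held CHR and CCAAT. A match says only that the letters are there, and was not tested as a site.

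The 250 bases before the start are shown for 3 Mcm genes, which encode helicase subunits, and for 4 mitosis genes, with matches in capitals. Mcm6 (log2 fold change 0.95 in ALK against Ctrl) holds 3 E2F-type matches, 2 of which overlap, and Mcm5 (0.45) holds 2 that overlap. Mcm2 (0.60) holds none and has 1 CHR match. No window was found for Pole or Gins2, and that of Tk1 held none of the 3 kinds of motif. Whether the letters go with the change in level was not tested. Mcm6 lies at chr1:128359706-128359955 on the minus strand, Mcm5 at chr8:75109259-75109508 on the plus strand and Mcm2 at chr6:88898781-88899030 on the minus strand.
Mcm6: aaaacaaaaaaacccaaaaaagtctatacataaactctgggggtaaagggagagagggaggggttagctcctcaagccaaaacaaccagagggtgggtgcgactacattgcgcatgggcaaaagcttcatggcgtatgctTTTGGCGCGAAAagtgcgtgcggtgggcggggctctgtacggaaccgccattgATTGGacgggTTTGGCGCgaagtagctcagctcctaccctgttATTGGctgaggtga
Mcm5: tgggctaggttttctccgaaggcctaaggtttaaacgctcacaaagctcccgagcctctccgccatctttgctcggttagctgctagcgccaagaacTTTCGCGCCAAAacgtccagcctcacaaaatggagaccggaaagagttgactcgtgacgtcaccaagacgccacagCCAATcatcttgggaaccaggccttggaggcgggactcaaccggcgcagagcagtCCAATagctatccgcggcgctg
Mcm2: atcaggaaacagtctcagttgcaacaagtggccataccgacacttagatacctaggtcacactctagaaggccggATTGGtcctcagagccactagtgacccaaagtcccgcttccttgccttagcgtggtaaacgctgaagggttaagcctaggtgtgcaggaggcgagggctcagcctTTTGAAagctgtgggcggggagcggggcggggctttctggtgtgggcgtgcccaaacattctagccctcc

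Cdk1, the kinase that drives entry into mitosis, was the only one of the 16 mitosis genes with an E2F-type match, beside 2 CHR and 3 CCAAT matches. Mki67, which encodes the proliferation marker Ki-67, held 2 CHR and 3 CCAAT matches. Cdc20, the activator of the anaphase-promoting complex, held 1 and 2, and Kif11, a spindle motor, held 1 of each. These windows lie at chr10:69352913-69353162 (Cdk1), chr7:135716380-135716629 (Mki67) and chr4:118437344-118437593 (Cdc20), all on the minus strand, and at chr19:37376132-37376381 on the plus strand (Kif11).
Cdk1: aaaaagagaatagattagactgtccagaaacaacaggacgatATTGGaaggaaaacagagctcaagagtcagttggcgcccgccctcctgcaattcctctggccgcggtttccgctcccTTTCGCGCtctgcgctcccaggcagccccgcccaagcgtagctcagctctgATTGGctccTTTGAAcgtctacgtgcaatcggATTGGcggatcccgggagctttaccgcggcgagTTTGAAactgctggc
Mki67: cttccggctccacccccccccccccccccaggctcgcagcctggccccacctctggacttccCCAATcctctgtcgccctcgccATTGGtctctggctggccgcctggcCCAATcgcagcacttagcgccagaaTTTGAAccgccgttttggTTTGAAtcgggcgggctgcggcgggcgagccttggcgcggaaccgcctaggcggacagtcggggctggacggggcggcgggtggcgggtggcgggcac
Cdc20: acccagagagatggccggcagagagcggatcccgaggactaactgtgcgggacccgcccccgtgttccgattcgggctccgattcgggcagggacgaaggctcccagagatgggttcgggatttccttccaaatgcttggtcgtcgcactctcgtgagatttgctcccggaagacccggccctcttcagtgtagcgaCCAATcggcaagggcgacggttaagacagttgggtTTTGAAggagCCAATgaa
Kif11: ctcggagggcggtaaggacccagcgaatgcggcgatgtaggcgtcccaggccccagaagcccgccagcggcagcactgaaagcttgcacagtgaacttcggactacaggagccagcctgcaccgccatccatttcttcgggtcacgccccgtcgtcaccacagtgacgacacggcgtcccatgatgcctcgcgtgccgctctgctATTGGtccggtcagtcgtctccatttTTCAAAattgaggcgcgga

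Between 12473857 and 18864327 reads per library were assigned to genes. Levels are given as CPM, the read count scaled to the size of the library, after TMM normalization, libraries are named by group and replicate number (Ctrl1 to ALKKO3), and ratios between libraries are on the scale of log2(CPM + 1). Dnmt1 was at 445, 487 and 400 CPM in Ctrl, at 240, 206 and 244 CPM in KO, at 205, 222 and 244 CPM in ALKKO and at 788, 624 and 379 CPM in ALK. Alk was at 34.9 CPM or more in each ALK and ALKKO library and at 0.431 CPM or less in each Ctrl and KO library. In ALK tumors, the summed level of 7 markers of thymocytes with both Cd4 and Cd8 was 240 to 570 CPM, against 6386 to 7175 CPM in Ctrl, and Rag1 among them was listed at 0 in all libraries. The second KO library (KO2), the only female, held 1913 CPM summed over 6 B-cell markers, against 47.2 and 57.1 CPM in the other two KO libraries, and 2200 against 646 and 441 CPM over 6 myeloid markers. The markers of thymocytes with both Cd4 and Cd8 summed to 2475 CPM in KO2, against 6420 and 6534 CPM in KO1 and KO3. For 7 T-cell markers the sums were 2626 against 5615 and 5698 CPM. The paper describes KO2 as an apparent outlier in its estimate of cell type proportions. Among tumors, ALK3, from the oldest mouse, held 826 CPM of the myeloid markers against 327 and 235 CPM. Itgam among the myeloid markers was listed at 0 in all libraries. Most of the myeloid sum was Lyz2, at 1690 CPM in KO2 and 597 CPM in ALK3. The sum of 3 endothelial markers was 273 CPM in ALK3 against 165 and 168 CPM in ALK1 and ALK2, but the 3 did not go together. Pecam1 was highest in ALK3 (247 against 95.9 and 128 CPM). Cdh5 (18.9 against 46.4 and 28.1 CPM) and Kdr (6.96 against 23.2 and 11.3 CPM) were lowest there. The summed level of 5 markers of early thymocytes was 592 CPM in KO2 against 1974 and 2253 CPM in KO1 and KO3, and 1186 CPM in ALK3 against 2134 and 3248 CPM in ALK1 and ALK2. Most of each sum was Dntt, at 490 CPM in KO2 and 1054 CPM in ALK3. Ptcra and Il2ra were also lowest in KO2 and in ALK3 within their groups, and Hes1 in ALK3. Kit went the other way, at 37.5 CPM in KO2 against 14.5 and 13.1 CPM, and at 68.4 CPM in ALK3 against 6.45 and 51.4 CPM. The summed level of 7 markers of thymic epithelium and stroma was 1318, 880 and 724 CPM in ALK1, ALK2 and ALK3, against 542 to 590 CPM in Ctrl. Within that list the collagen gene Col1a1 was at 702, 381 and 243 CPM in the tumors and at 14.2 to 28.6 CPM in Ctrl, whereas the epithelial keratin Krt8 was at 0.873, 5.41 and 23 CPM against 206 to 286 CPM. The epithelial genes did not all go together. Krt5 was at 0.672, 21.1 and 86 CPM against 176 to 197 CPM, and Foxn1 at 1.09 CPM or less against 14.6 to 38.8 CPM. Epcam was far below Ctrl only in ALK1, at 1.95, 41.1 and 45.3 CPM against 43.6 to 54 CPM. The part of these cells in the results below was not tested. In these bulk samples, fewer dividing cells and less RNA per dividing cell cannot be told apart.

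The first comparison asked whether tumor cells differ from control thymocytes in these genes. In the ALK tumors 5 replication genes rose, and no mitosis or G1/S gene passed the test. At an adjusted p under 0.05 (edgeR's quasi-likelihood test over all genes), 5 of the 42 genes were higher in ALK than in Ctrl, namely Pole, Gins2, Tk1, Mcm6 and Mcm3, and all 5 are replication genes. This is 5 of 42 beside 14.8% of all genes tested. Of the 5, 3 also passed a log2 fold change of 1, the rule for a call, beside 8.41% of all genes. Both counts are near the share over all genes. No gene was called lower, beside 1931 of the 16052 genes tested, and none was lower at an unadjusted p under 0.05, in edgeR. DESeq2's Wald test called the same 3 genes higher and 0 lower. The estimated log2 fold change was above 0 for 41 of the 42 genes, with a median of 0.44, against 0.05 over all genes. The median was 0.57 for the 19 replication genes and 0.29 for the 19 mitosis genes.

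**Figure D1:**
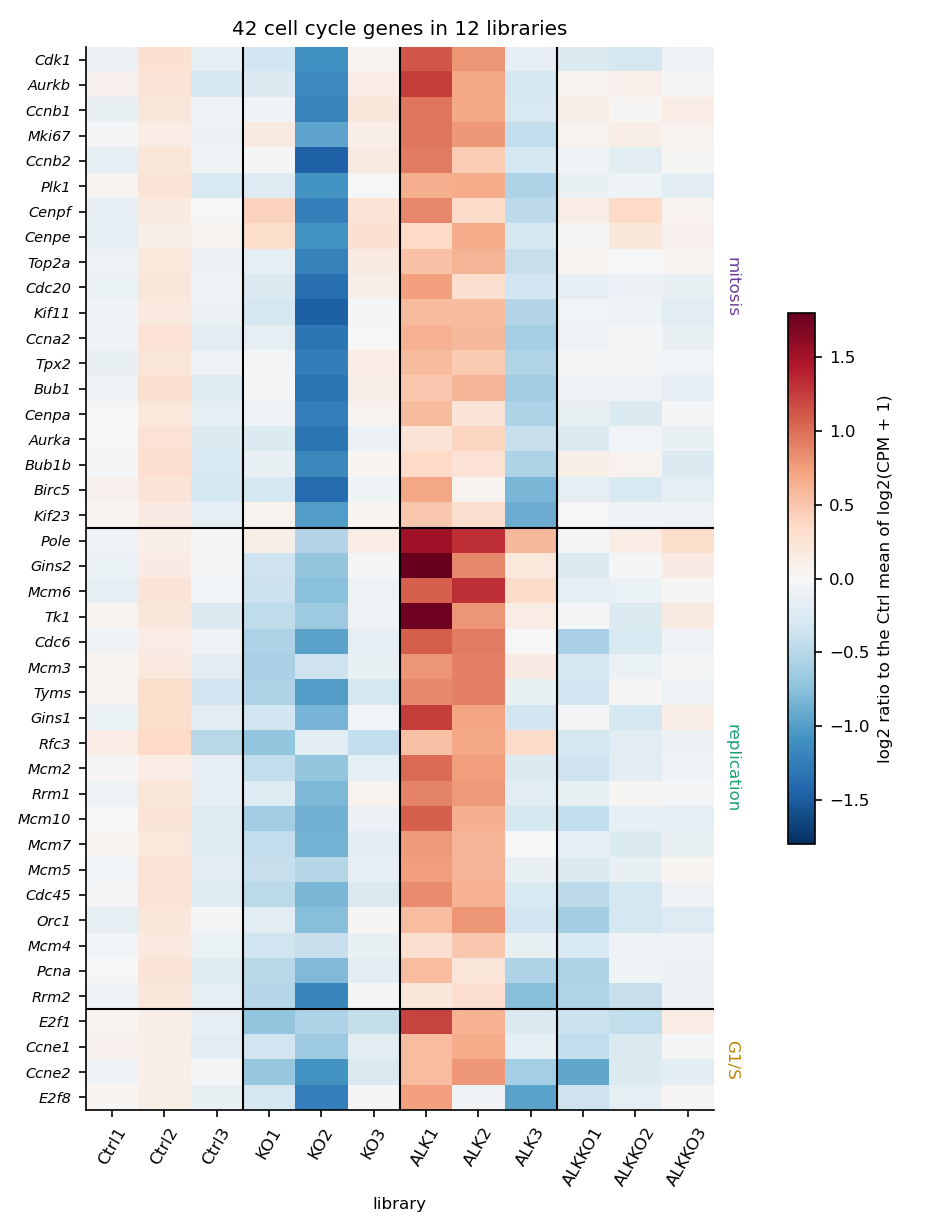
Heat map of the log2 ratio of each gene to the mean of the 3 Ctrl libraries, on the log2(CPM + 1) scale, with the 42 genes in rows, grouped by role, and the 12 libraries in columns. ALK1 and ALK2 stand above Ctrl in nearly all rows, ALK3 lies below Ctrl in most mitosis rows, and KO2 is the lowest of the KO libraries in most rows.

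Among the polymerase and clamp genes, Pole, the catalytic subunit of leading-strand polymerase epsilon, changed most. Pole was at 57, 63.6 and 57.6 CPM in Ctrl and at 173, 149 and 89.1 CPM in the tumors. All 3 tumors lay above all Ctrl libraries. Its log2 fold change was 1.20 (SE 0.247, adjusted p = 0.00588), and Pole was the one gene of the list called under every alternative setting of this comparison. Pcna, the sliding clamp, was at 225, 265 and 192 CPM in Ctrl and at 332, 262 and 154 CPM in ALK. The tumors lay on both sides of Ctrl, and the estimate was 0.13 (SE 0.271, adjusted p = 0.742). Rfc3, a subunit of the loader that places the clamp, was at 62.7, 70.2 and 54.8 CPM in the tumors and at 47.6, 55.6 and 30.1 CPM in Ctrl, and its log2 fold change of 0.49 (SE 0.222) had an adjusted p of 0.117.

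Of the 4 genes of helicase activation, Gins2, a subunit of the GINS complex, passed the test. It was at 17.4, 21.2 and 18.7 CPM in Ctrl and at 68.3, 35.3 and 21.9 CPM in ALK. The groups did not overlap, though ALK3 lay close to the highest Ctrl library, and the log2 fold change was 1.13 (SE 0.362, adjusted p = 0.0387). Gins2 lies inside the body of Gm20388 on the opposite strand. Gins1, another GINS subunit, was at 62.5, 42.4 and 19.9 CPM in ALK against 22.4 to 31.9 CPM in Ctrl, and Cdc45, its partner in the active helicase, was at 117, 99.6 and 53.3 CPM against 55 to 76.2 CPM. Both overlapped with Ctrl through ALK3, as did Mcm10.

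Among the 8 tested genes of origin licensing, 2 passed the adjusted p without reaching a log2 fold change of 1, and the estimates ran from 0.23 (Mcm4) to 0.95 (Mcm6). Mcm6 was at 236, 315 and 257 CPM in Ctrl and at 561, 663 and 337 CPM in ALK. It was higher in all 3 tumors than in all Ctrl libraries (SE 0.247, adjusted p = 0.0172). Mcm3 was at 199, 218 and 169 CPM in Ctrl and at 336, 366 and 215 CPM in ALK, so that ALK3 lay within the Ctrl range, at an estimate of 0.65 (SE 0.206, adjusted p = 0.0377). Mcm2 was at 220, 240 and 196 CPM in Ctrl and at 443, 368 and 185 CPM in ALK, and Cdc6, the loading factor, at 50.3, 58.2 and 50.6 CPM and 114, 102 and 53.2 CPM. Neither passed the test, with adjusted p of 0.119 for Mcm2 and 0.0679 for Cdc6. The subunits of one helicase thus had different estimates, although differences between them were not tested.

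Nucleotide supply was split. Tk1, the thymidine kinase of the salvage route, was at 59.8, 66.5 and 48.7 CPM in Ctrl and at 196, 101 and 63.5 CPM in ALK. ALK3 lay within the Ctrl range, and the log2 fold change was 1.04 (SE 0.346, adjusted p = 0.0442). Tk1 lies inside the body of Gm20708 on the opposite strand. Rrm2, the regulated subunit of ribonucleotide reductase, was at 263, 317 and 246 CPM in Ctrl and at 315, 337 and 161 CPM in ALK. Rrm2 was the only one of the 42 genes with an estimate below 0, at -0.02 (SE 0.318, adjusted p = 0.965). Rrm1, the other subunit of that enzyme, was at 523, 478 and 246 CPM in ALK against 255 to 330 CPM in Ctrl, and Tyms, which makes thymidylate, at 154, 159 and 76.6 CPM against 65.5 to 104 CPM. Neither passed the test.

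**Figure D2:**
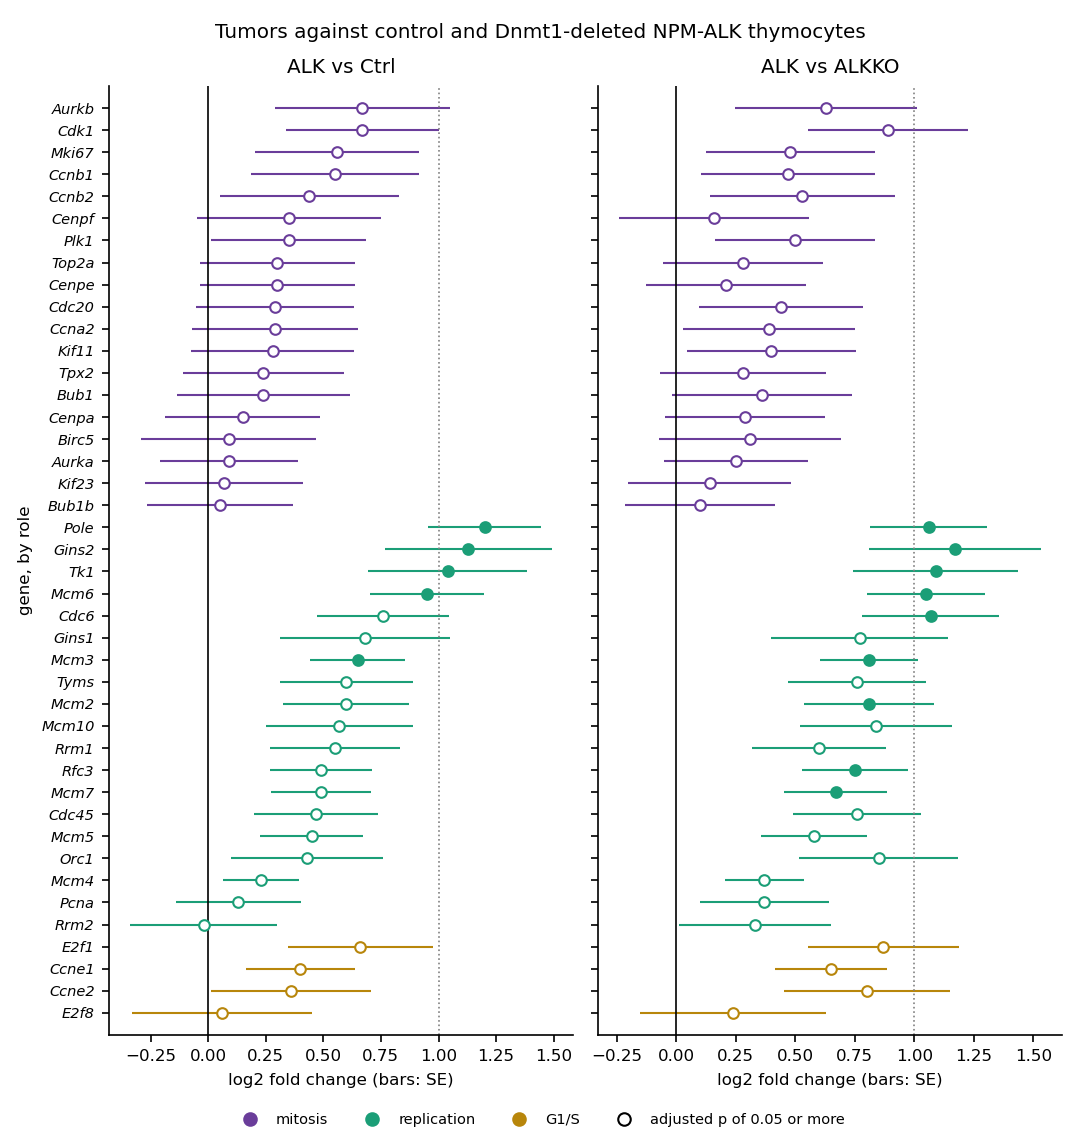
Log2 fold change of each of the 42 genes in ALK against Ctrl (left) and in ALK against ALKKO (right), with its standard error, coloured by role. Filled points passed an adjusted p of 0.05, 5 on the left and 9 on the right, all of them replication genes, and the dotted line marks a log2 fold change of 1.

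None of the 19 mitosis genes passed in ALK against Ctrl, with edgeR or DESeq2, and none had an unadjusted p under 0.05 with edgeR. Without ALK3, 3 of them passed the adjusted p, namely Cdk1 (log2 fold change 0.95, adjusted p = 0.0326), Aurkb (0.98, adjusted p = 0.0447) and Mki67 (0.86, adjusted p = 0.0409). All 19 estimates were above 0, from 0.05 (Bub1b, a spindle checkpoint kinase) to 0.67 (Cdk1 and Aurkb), with standard errors of 0.301 to 0.4. Cdk1 was at 124, 162 and 119 CPM in Ctrl and at 293, 233 and 121 CPM in ALK, where 2 tumors stood above Ctrl and ALK3 within it (adjusted p = 0.151). Aurkb, the kinase of the chromosomal passenger complex, was at 105, 117 and 79.5 CPM in Ctrl and at 238, 161 and 79.9 CPM in ALK (adjusted p = 0.206). Ccnb1, the cyclin partner of Cdk1, was at 80.9, 65.9 and 33.6 CPM in ALK and at 37 to 47.4 CPM in Ctrl. The same order was seen in each of these genes, with ALK1 highest and ALK3 lowest.

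Mki67 was at 781, 886 and 748 CPM in Ctrl and at 1577, 1380 and 590 CPM in ALK. ALK1 and ALK2 were above all Ctrl libraries and ALK3 below them, and the estimate was 0.56 (SE 0.356, adjusted p = 0.26). Top2a, the topoisomerase that untangles sister chromosomes, was at 1298, 1374 and 672 CPM in ALK and at 837 to 1030 CPM in Ctrl (log2 fold change 0.30, SE 0.336, adjusted p = 0.526). Kif23, a motor of the central spindle, was at 172, 152 and 65.8 CPM in ALK and at 108 to 137 CPM in Ctrl. In these genes too the group means concealed tumors on both sides of Ctrl.

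The 4 G1/S genes did not pass either, with estimates of 0.06 to 0.66. E2f1, a transcription factor that turns on S-phase genes, was at 42.2, 44 and 36.6 CPM in Ctrl and at 96.3, 63.4 and 33.9 CPM in ALK (log2 fold change 0.66, SE 0.315, adjusted p = 0.138). E2f8, a repressor of the same family, was at 111, 117 and 100 CPM in Ctrl and at 183, 105 and 55.6 CPM in ALK. Its tumors were above, within and below the Ctrl range, and the estimate was 0.06. Ccne1 and Ccne2, the cyclins that start S phase with Cdk2, were at 49.9, 53.8 and 29.6 CPM and at 76.9, 89.7 and 33.7 CPM in ALK, against 29.3 to 36.3 CPM and 49.5 to 55.7 CPM in Ctrl.

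**Figure D3:**
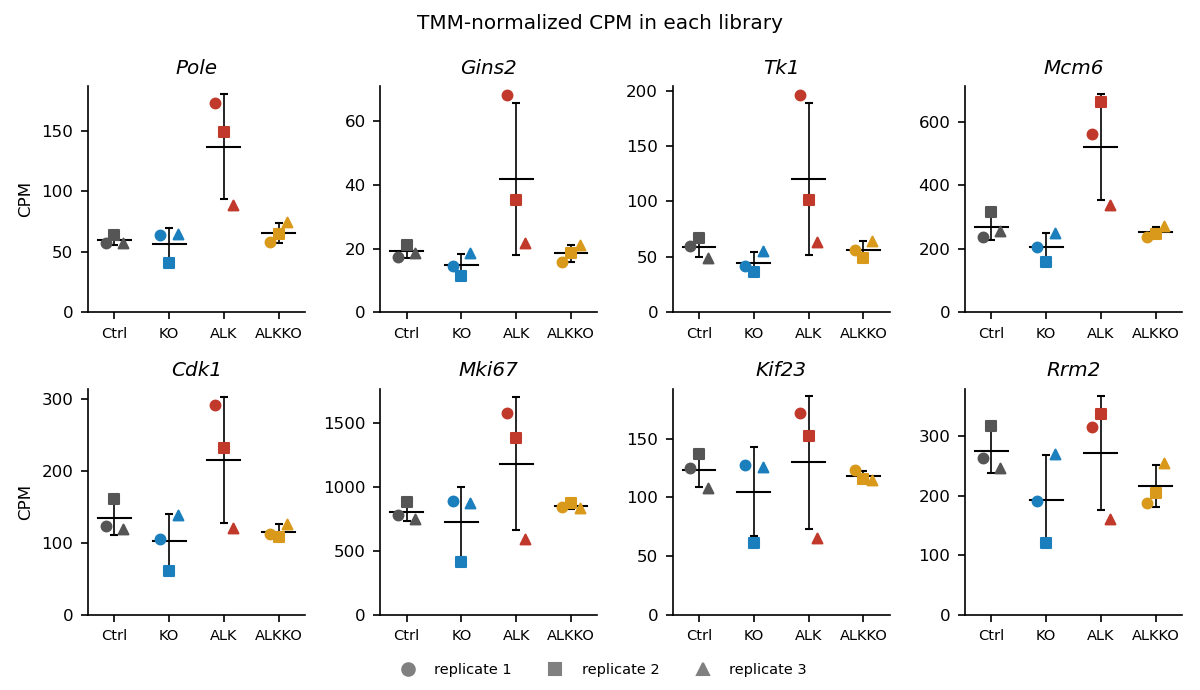
CPM of 8 genes in each library, by group, with symbols for the replicate number and lines for the mean and SD of 3 libraries. In Pole and Mcm6 all 3 tumors lie above Ctrl, whereas in Mki67, Kif23 and Rrm2 ALK3 (triangle) lies below all Ctrl libraries.

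The 3 tumors differed more from each other than the control mice did. ALK3 was the lowest of the tumors in all 42 genes, whereas 29.6% of all genes tested were lowest in ALK3. ALK1 was highest in 27 genes and ALK2 in 15. The median log2 ratio to the Ctrl mean was 0.75 in ALK1, 0.63 in ALK2 and -0.31 in ALK3, against -0.03, -0.05 and -0.02 over all genes. The fold between the highest and the lowest tumor ran from 1.28 (Rfc3) to 3.3 (E2f8), with a median of 2.21. The SD of log2(CPM + 1) was larger in ALK than in Ctrl for 41 of 42 genes, with a median of 0.61 against 0.19, and over all genes it was 0.35 against 0.16. In ALKKO the median SD was 0.12.

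ALK1 was above all Ctrl libraries in 40 genes, ALK2 in 38 and ALK3 in 3, beside 41.3%, 40.8% and 40.4% of all genes in those libraries. The 3 genes of ALK3 were Pole, Gins2 and Mcm6, and these were also the only 3 of the 42 in which all tumors lay above all Ctrl libraries, beside 21.3% of all genes. ALK3 was below all Ctrl libraries in 29 genes, beside 41.6% of all genes. These were 17 of the 19 mitosis genes, 9 of the 19 replication genes and 3 of the 4 G1/S genes. In ALK3 the lowest ratios were those of E2f8 (-0.96), Kif23 (-0.89) and Birc5 (-0.82), which encodes the passenger protein survivin, and the highest was that of Pole (0.58). Without ALK3, 19 genes passed the adjusted p, beside 15.1% of all genes in that fit, and these were 14 of replication, 3 of mitosis and 2 of G1/S (E2f1 and Ccne1). Of the 19, 6 were called, with Cdc6, Gins1 and Mcm6 added to the 3 above. Pole alone was called without ALK1 or ALK2, and likewise without Ctrl1, Ctrl3, KO1 or any one of the ALKKO libraries. ALK3 differs from the other tumors in age and in the marker levels given above, which cannot be told apart with 1 library, and their part was not tested.

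The replication genes stood higher relative to the mitosis genes in tumors than in Ctrl. The mean log2(CPM + 1) of the replication genes minus that of the mitosis genes was -0.71, -0.74 and -0.76 in Ctrl and -0.49, -0.49 and -0.35 in ALK. All 3 tumors lay above all 3 Ctrl libraries, at group means of -0.44 ± 0.08 (SD, n = 3) and -0.74 ± 0.03 (SD, n = 3). ALK3, which had the lowest levels, had the largest value of the tumors. In ALK3 the median ratio to Ctrl was -0.14 for replication and -0.47 for mitosis genes, while it was 0.87 and 0.62 in ALK1 and 0.75 and 0.57 in ALK2. In ALKKO the difference was -1.0, -0.86 and -0.70, a mean of -0.85 ± 0.15 (SD, n = 3). In KO it was -1.07 and -0.95 in 2 libraries and -0.24 in KO2, which lay above the tumors. This contrast between the lists is a description and was given no test.

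**Figure D4:**
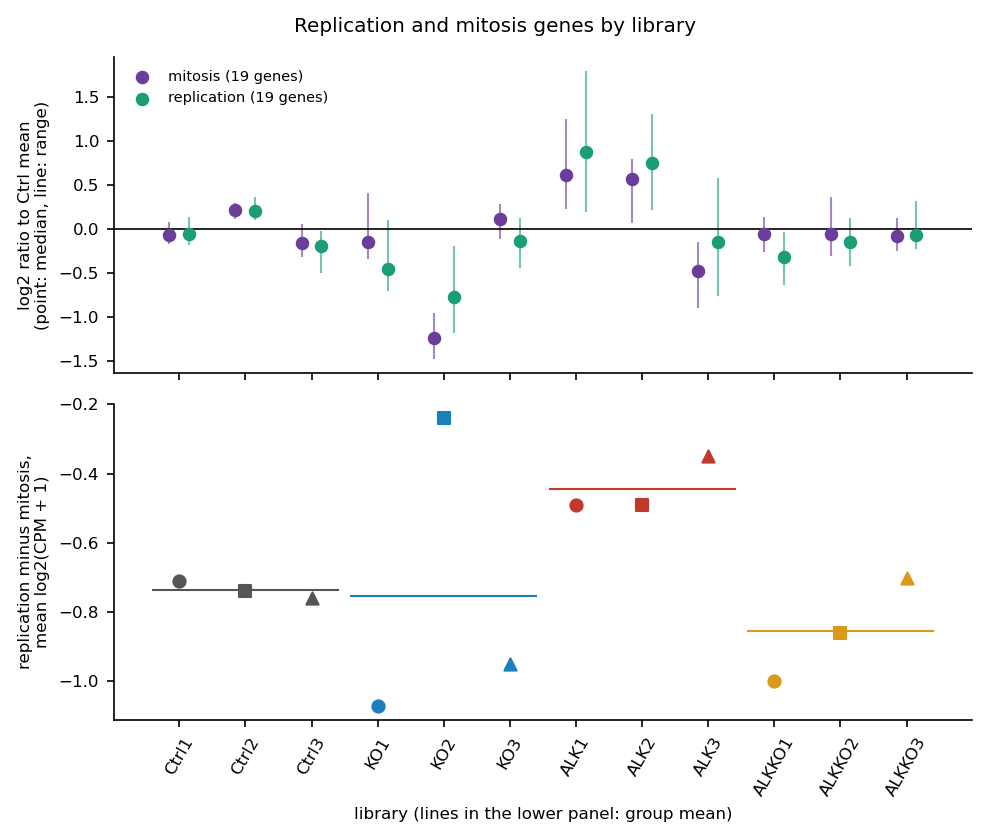
Upper panel, median and range of the log2 ratio to the Ctrl mean over the 19 mitosis and the 19 replication genes in each library. Lower panel, mean log2(CPM + 1) of the replication genes minus that of the mitosis genes in each library, where the tumors lie at -0.49 to -0.35 and Ctrl at -0.76 to -0.71.

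The second comparison set the tumors against thymocytes that carried NPM-ALK with DNMT1 fl/fl and CD4-CRE. Their Dnmt1 RNA was lower than in Ctrl but not absent (log2 fold change -0.99, unadjusted p = 0.00129, adjusted p = 0.259 in edgeR), and all ALKKO libraries lay below all Ctrl libraries. These RNA counts do not measure the protein. The paper reports loss of DNMT1 protein in KO and ALKKO mice by immunohistochemistry and Western blot. The second comparison shares the tumor libraries with the first, so the 2 sets of values are not independent. In ALK against ALKKO, 9 genes passed the adjusted p, beside 13.4% of all genes, and 5 were called higher, beside 7.03% of all genes. The 5 were Gins2, Tk1, Cdc6, Pole and Mcm6, with log2 fold changes of 1.05 to 1.17, and the other 4 were Mcm2, Mcm3, Mcm7 and Rfc3. All 9 are replication genes in this fit, but the restriction to replication did not hold under other settings. Cdk1 of mitosis passed the adjusted p with DESeq2, with age as a covariate and without ALK3. The last 2 of these are not fully separate checks, because ALK3 came from the oldest mouse, at 31 weeks. Cdk1 also passed without KO2 and with sex as a covariate, which are not separate checks because KO2 was the only female. E2f1 and Ccne1 of G1/S passed with DESeq2, with age and without ALK3. The median log2 fold change was 0.77 for replication genes and 0.36 for mitosis genes, against 0.03 over all genes, and all 42 estimates were above 0. All tumors lay above all ALKKO libraries in 7 of the 42 genes, beside 19.5% of all genes, so the count is no more than the share over all genes. The 7 were replication genes.

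Cdc6 was at 114, 102 and 53.2 CPM in ALK and at 34.9, 43.4 and 50.3 CPM in ALKKO, without overlap (log2 fold change 1.07, SE 0.288, adjusted p = 0.0203). Mcm6 was at 236, 246 and 272 CPM in ALKKO and Pole at 57.9, 65 and 74.4 CPM, all below the lowest tumor. Rfc3 was at 34.6, 37.3 and 39.9 CPM in ALKKO, and its log2 fold change of 0.75 (SE 0.223) had an adjusted p of 0.0308. The mitosis gene with the largest estimate was Cdk1, at 113, 108 and 127 CPM in ALKKO (log2 fold change 0.89, SE 0.335, adjusted p = 0.0695), where ALK3 lay within the ALKKO range. Without ALK3, 15 genes were called, with Cdk1, E2f1 and Ccne2 among them, and the same 3 were among the 12 called with age as a covariate. These 2 settings are not fully separate, because ALK3 came from the oldest mouse. The count was 1 without ALK1, 2 without ALKKO2, and 3 without Ctrl1, Ctrl2, KO1 or ALKKO3. Without ALK2 or ALKKO1 it was 0 with edgeR, although 2 genes still passed the adjusted p in each fit.

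The third comparison asked how thymocytes with the Dnmt1 deletion but without NPM-ALK differed from Ctrl. Dnmt1 RNA was lower there too but not absent (log2 fold change -0.95, unadjusted p = 0.00172, adjusted p = 0.787 in edgeR), and all KO libraries lay below all Ctrl libraries. None of the 42 genes was called in KO against Ctrl, beside 0.0187% of all genes, with edgeR or with DESeq2, and 1 (Mcm7, log2 fold change -0.48, SE 0.217) had an unadjusted p under 0.05, with an adjusted p of 0.864. All 42 estimates were below 0, with a median of -0.39 against 0.04 over all genes. Their size depended on KO2, which was below all Ctrl libraries in 41 genes with a median ratio of -1.0, beside 39.7% of all genes. KO1 had a median ratio of -0.31 and KO3 of -0.02. Without KO2 the median log2 fold change was -0.18, at -0.28 for replication and -0.02 for mitosis genes. The marker levels of KO2 are given above.

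In 7 genes all 3 KO libraries lay below all 3 Ctrl libraries, 4 of replication and 3 of G1/S, beside 6.24% of all genes. Ccne2 was at 31.9, 24.2 and 43.3 CPM in KO against 49.5, 55.7 and 50.6 CPM in Ctrl (log2 fold change -0.65, SE 0.348, adjusted p = 0.864). E2f1 was at 24.5, 27.4 and 30.1 CPM in KO against 36.6 to 44 CPM in Ctrl, with an estimate of -0.58 (SE 0.316). Cdc6 was at 35.8, 26.5 and 46.8 CPM in KO. The other 4 were Mcm2, Mcm4, Cdc45 and Ccne1, at estimates of -0.53 to -0.30. The 7 were picked for this separation, so the exact two-sided permutation test could only give p = 0.1 for each. That is the smallest p that 3 against 3 can give, and it adds no support.

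In KO1 the replication genes lay lower than the mitosis genes, with 18 of 19 replication genes below all Ctrl libraries and 5 of 19 mitosis genes, beside 29.2% of all genes. The median ratios in KO1 were -0.45 and -0.14. KO3 was closer to Ctrl, with 4 and 0 genes below, beside 27.9% of all genes. In KO2 the order was turned, with medians of -0.77 and -1.23.

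The thymocytes of ALKKO mice lay near Ctrl. None of the 42 genes was called in ALKKO against Ctrl, beside 0.181% of all genes, none had an unadjusted p under 0.05 with edgeR, and none was called with DESeq2. The median log2 fold change was -0.14, at -0.16 for replication and -0.09 for mitosis genes, against 0.01 over all genes. Of the 42 estimates 35 were below 0, beside 7663 of the 16052 genes tested. These were 18 of the 19 replication genes, 13 of the 19 mitosis genes and all 4 G1/S genes. The lowest estimates were those of Ccne2 (-0.43, SE 0.347) and Orc1, the largest subunit of the origin recognition complex (-0.42, SE 0.331), and the highest that of Cenpf, a kinetochore protein (0.19, SE 0.399). Orc1 was at 9.62, 12.3 and 13 CPM in ALKKO and at 13.7, 18.1 and 15 CPM in Ctrl, and Ccne2 at 26.5, 43.5 and 45.3 CPM in ALKKO. In both, all ALKKO libraries lay below all Ctrl libraries. This held for 2 of the 42 genes, beside 1214 of the 16052 genes tested. Mki67 was at 845, 871 and 835 CPM in ALKKO, within the Ctrl range. ALKKO1 had 12 of 19 replication genes below all Ctrl libraries, ALKKO2 had 8 and ALKKO3 had 1, beside 31.4%, 28.4% and 27.5% of all genes.

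ALKKO against KO gave 0 calls among the 42 genes with edgeR, beside 0.00623% of all genes, 0 genes with an unadjusted p under 0.05 and 0 calls with DESeq2. The median log2 fold change was 0.24, and 0.03 without KO2. ALK against KO gave the most calls, 13 beside 7.94% of all genes, and 20 genes passed the adjusted p, beside 15.3% of all genes. The 13 were 10 replication genes (Cdc6, Mcm2, Mcm3, Mcm6, Mcm10, Gins1, Gins2, Pole, Tyms and Tk1), E2f1, Ccne2 and the mitosis gene Cdk1, at log2 fold changes of 1.01 to 1.49. This count was 8 without KO2, 25 without ALK3, 4 without ALK1, 7 without ALK2 and 7 without KO1, and 0 when only the 2 groups entered the fit.

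Whether the difference between tumors and Ctrl was larger than that between ALKKO and KO was tested as an interaction. No gene of the 42 passed with edgeR or DESeq2, beside 8.93% of all genes called, and 1, Pole, had an unadjusted p under 0.05 with edgeR. For Pole the interaction was 0.98 (SE 0.346, adjusted p = 0.0978). It passed without ALK3 (1.19, adjusted p = 0.0207) and without KO2 (1.14, adjusted p = 0.0488). The median interaction was 0.31 for replication genes and 0.05 for mitosis genes, against 0.08 over all genes.

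Further genes of the same pathways were counted in 5 lists. Of 109 further genes tested, 17 passed the adjusted p as higher in ALK and 3 as lower, and 8 and 2 were called, with a median log2 fold change of 0.37. The 17 and the 8 stand beside 14.8% and 8.41% of all genes and are near those shares. The 3 and the 2 that were lower stand beside 2363 and 1931 of the 16052 genes tested. Counts of the single lists stand beside the same shares. Of 22 further genes of DNA synthesis, 6 were higher and 3 were called, with a median of 0.54. Of 12 further genes of licensing and firing, 3 were higher and 0 were called. Of 46 further mitosis genes, 4 were higher and all 4 were called, with a median of 0.33, and of 16 genes of G2/M control 3 were higher. In edgeR 0 of the 109 passed in KO against Ctrl, where 5 had an unadjusted p under 0.05, and 0 passed in ALKKO against Ctrl, where 0 had one.

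Chaf1b, a subunit of the factor that packs new DNA into nucleosomes, was at 34.8, 39.3 and 31.4 CPM in Ctrl and at 125, 85.5 and 52.4 CPM in ALK (log2 fold change 1.32, SE 0.308, adjusted p = 0.0108). Pold2, a subunit of DNA polymerase delta, was at 38.7, 53.8 and 41.5 CPM in Ctrl and at 162, 85.1 and 52.8 CPM in ALK (adjusted p = 0.0245), and Melk, a kinase linked to cell division, at 27.3, 32.5 and 24.3 CPM and 90.9, 71.3 and 31 CPM (adjusted p = 0.0317). In Chaf1b all tumors lay above Ctrl, and in Pold2 and Melk ALK3 lay within the Ctrl range. ALK3 was the lowest tumor in all 3.

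Among 13 genes of the E2F and pocket protein families, E2f3 was called higher and E2f2 and Rbl2 lower in ALK than in Ctrl. E2f2, an E2F factor, fell from 753, 757 and 692 CPM in Ctrl to 303, 264 and 289 CPM in the tumors (log2 fold change -1.36, SE 0.307, adjusted p = 0.00912). Rbl2, the pocket protein p130 that restrains E2F target genes, was at 164, 149 and 167 CPM in Ctrl and at 66.4, 70.2 and 96.8 CPM in ALK (log2 fold change -1.04, SE 0.167, adjusted p = 0.00197). In both the groups did not overlap, and both were also the only 2 of the 109 that passed the interaction, at -1.93 (adjusted p = 0.0225) for E2f2 and -1.11 (adjusted p = 0.0181) for Rbl2. Over all genes 8.93% were called in the interaction. E2f2 was at 787, 600 and 831 CPM in ALKKO and at 586, 242 and 669 CPM in KO, where KO2 was the lowest library of the series.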

How the data were processed

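Single-end reads were trimmed and mapped to mm10 by STAR, and the values the authors deposited are raw HTSeq counts, 1 count per gene and library. The annotation release and the strand setting are not given in the sources used here. HTSeq counts that named no gene were left out. They made up 43.8% to 55.3% of all counts of a library, mostly alignments to several places, and were highest in the tumors. The share of reads that this stands for was not determined. Of the 50600 IDs, 50376 were matched to symbols and positions of GENCODE M21 (GRCm38).

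Testing used edgeR 4.0.16 (R 4.3.3), with TMM (factors 0.913 to 1.06), filterByExpr, 1 term per group over all 12 libraries, robust glmQLFit and glmQLFTest, with Benjamini-Hochberg adjustment over 16052 genes. A gene was called if its log2 fold change was beyond 1 in size and its adjusted p below 0.05. The SE is the estimate divided by the root of its F statistic. The scripts were tested on simulated data. Exact permutation tests were two-sided. Alternatives were DESeq2 1.42.0, its size factors, other filters, covariates and call rules, only the compared groups, the replicate block and each library left out. Sex as a covariate marks KO2 alone, the only female, so it is not a check apart from leaving KO2 out. Age as a covariate is not fully apart from leaving out ALK3, which came from the oldest mouse.

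The 43 genes and all further lists were chosen with earlier results of these data known. By rule the text names the 3 highest and 3 lowest estimates of each main role in ALK against Ctrl, the G1/S genes, Mki67, Top2a, Pcna, Ccnb1, Cdk1 and Mcm2, any gene called without the tumors, Dnmt1, Alk and the pathway genes with the largest called rises and falls. Other members were named after their values were seen. Promoters were matched by symbol to RefSeq.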

Additional observations from a re-analysis of the deposited data

How the results depend on the processing

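The counts of genes called higher in the tumors moved with most settings, and the cause was not tested. In ALK against Ctrl (3 genes) the count was 1 with no low-count filter, with a minimum of 10 counts per library and with only the 2 groups fitted, 5 with age as a covariate and 5 with any fold change, and 1 to 6 when a library was left out. In ALK against ALKKO (5) it was 3, 0, 2, 12 and 9 under these settings in the same order, and 0 to 15 when a library was left out. In ALK against KO (13) it was 7 with a minimum of 10 counts per library, 0 with only the 2 groups, 20 with age and 20 with any fold change. It was 8 with sex, which marks KO2 alone, and also 8 without KO2, and 4 to 25 when a library was left out. With the replicate number as a block it was 1, 3 and 8. The numbers did not pair the samples: 5 of 18 same-numbered pairs had a correlation over 0.1, from -0.106 to 0.426.

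The median of all 42 genes kept its sign in each of the 6 comparisons under all settings run. In ALKKO against KO it was 0.24, and 0.03 with sex, which marks KO2 alone, 0.33 with age and 0.03 to 0.47 when a library was left out. In ALKKO against Ctrl it ranged from -0.24 to -0.03 when a library was left out. The interaction counted 1 gene, Pole, with age as a covariate and with sex, which again marks KO2 alone, and 0 to 1 when a library was left out. DESeq2's size factors, a pseudocount of 0.5 and a minimum of 10 counts in every library moved the medians of the 3 tumors and the replication minus mitosis difference by less than the spread of replicates.

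Among single genes near 0 the sign turned. With a minimum of 10 counts per library, the log2 fold change in ALK against Ctrl was -0.03 for Bub1b, -0.02 for Kif23 and -0.03 for E2f8, and in ALK against ALKKO -0.00 for Bub1b. Rrm2 was at 0.20 in ALK against Ctrl with age as a covariate. With a library left out, ALK against Ctrl ran from -0.1 to 0.28 for Aurka, -0.11 to 0.28 for Bub1b, -0.18 to 0.38 for Kif23, -0.12 to 0.37 for Pcna, -0.23 to 0.23 for Rrm2 and -0.45 to 0.38 for E2f8. ALK against ALKKO ran from -0.05 to 0.33 for Bub1b, -0.1 to 0.45 for Kif23 and -0.26 to 0.56 for E2f8, and ALK against KO from -0.0 to 0.83 for E2f8.

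Depth was 12473857 reads or more in each library, and with 3 mice a group and SEs of 0.301 to 0.4 in mitosis genes, changes of the size estimated there could not be told from 0.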
